A study of Mus musculus with 8 samples.

Results

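The sodium pump (Na,K-ATPase) genes described here are Atp1b1, Atp1b2 and Atp1b3, which encode beta subunits, and Fxyd1, Fxyd6 and Fxyd7, which encode FXYD partner proteins. They were taken by symbol, 6 of the 24060 gene rows in the files. The samples were cortices of 4 mice of about postnatal day 80. All animals had the genotype Aldh1l1-creERT2 hemi; Ribotag het. Aldh1l1-creERT2 places a Cre recombinase that tamoxifen switches on under control of Aldh1l1, a gene of astrocytes, and Ribotag is an allele of Rpl22 (a ribosomal protein gene) through which Cre adds a hemagglutinin (HA) epitope to ribosomes. Each animal gave an HA IP library, from RNA precipitated with tagged ribosomes, and an input library, from the cleared lysate of the same cortex, so that there were 4 HA IP and 4 input libraries. Animals carry the numbers 579, 580, 581 and 595. Both sexes were used and are not told apart in the labels, every animal carried both alleles, and the induction of Cre is not described in the sources used here.

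The pump exports sodium and imports potassium at the cost of ATP, and in brain it sets the ion gradients on which neuronal firing and glial uptake of potassium and glutamate depend. Its catalytic subunit needs a beta subunit, a glycosylated protein that spans the membrane once, to fold and reach the cell surface, and the kind of beta subunit affects its affinity for potassium. FXYD proteins are small membrane proteins that attach to the assembled pump and tune its affinity for ions. Atp1b2 encodes the beta-2 subunit, first described as an adhesion molecule on glia (AMOG), while beta-1 is the widespread form. Fxyd1 encodes phospholemman, a target of protein kinases, and Fxyd7 is known as a brain FXYD gene of neurons.

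RefSeq (GRCm38.p6) supplied 5 windows of 250 bases upstream of a start for 4 of the 6 genes. The windows of Atp1b1 and Fxyd1 are shown because these genes moved in opposite directions, as described below, Fxyd1 with the largest rise of the 6 and Atp1b1 as the most abundant gene in input. The motifs searched on both strands were the GC box GGGCGG, the CCAAT box and the TATA box, whose letters are TATAAA. Capitals mark their matches, and both sequences run 5′ to 3′ on the minus strand of their chromosome. The Atp1b1 window is chr1:164458356-164458605. The Fxyd1 window is chr7:31054854-31055103 and lies inside the listed span of the gene, before the start of a shorter transcript.
Atp1b1: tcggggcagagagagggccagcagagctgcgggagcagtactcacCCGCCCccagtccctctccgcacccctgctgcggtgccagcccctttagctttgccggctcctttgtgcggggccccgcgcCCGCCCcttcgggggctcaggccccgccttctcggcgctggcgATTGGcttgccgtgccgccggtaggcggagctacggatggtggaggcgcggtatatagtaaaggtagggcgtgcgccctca
Fxyd1: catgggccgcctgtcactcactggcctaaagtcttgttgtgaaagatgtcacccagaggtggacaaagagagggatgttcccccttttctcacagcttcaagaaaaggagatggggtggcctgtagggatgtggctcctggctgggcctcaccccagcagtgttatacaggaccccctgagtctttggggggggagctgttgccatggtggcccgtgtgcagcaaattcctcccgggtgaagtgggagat
The Atp1b1 window held 2 GC boxes and 1 CCAAT box, and the Fxyd1 window held no match to these motifs. Of all 32851 windows of this length, 32.7% held a GC box, 33.8% a CCAAT box and 12.4% a TATA box. The motif TTGGC, part of the nuclear factor I site, present in 41.5% of all windows, matched once in Atp1b1, where it overlapped the CCAAT box, and did not match in Fxyd1. The SOX core ACAAT, present in 27.7% of all windows, matched in neither. CpG dinucleotides numbered 24 in the Atp1b1 window and 3 in the Fxyd1 window, against a median of 6 over all windows. The other windows held 5 CpG for Fxyd6, and 24 and 35 for the pair of Atp1b3 starts. Like the window of Fxyd1, those of Fxyd6 and of the Atp1b3 start with 35 CpG lie inside the listed span of their gene. These are matches of letters in a short window and were not measured as binding.

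The libraries held 33834388 to 53625125 fragments, both ends of the range belonging to animal 595 (HA IP lowest, input highest). Levels are given as FPKM, that is fragments divided by the length of the gene and the depth of the library, on the deposited scale. Fold changes are HA IP over input on log2(FPKM + 0.1) after TMM scaling of the libraries (trimmed mean of M-values), tested with limma, with Benjamini-Hochberg adjustment over 15605 genes and a threshold of 0.05. TMM scaling raised HA IP against input by 0.83 on the log2 scale, less for genes near the pseudocount; the median log2 fold change of all genes tested was 0.00 with it and -0.75 without it. At the threshold 83.3% of genes tested were called, 41.8% as higher and 41.4% as lower in HA IP, so a call alone says little about a gene, and the sizes below are read against that background. Markers followed the labelled tissue and cell type. All 12 astrocyte markers were higher in HA IP (median log2 fold change 4.12; Aldh1l1 5.04, SE 0.08; Gja1 4.16, SE 0.13) and all 12 neuron markers were lower (median -3.50; Snap25 -4.18, SE 0.12; Syt1 -4.18, SE 0.07). HA IP and input of an animal came from the same cortex. A fold change thus compares RNA precipitated with tagged ribosomes with RNA of the cleared lysate. In bulk RNA of this kind, the part of a cell type in a library and its level per cell cannot be told apart.

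Of the beta subunit genes, Atp1b2 and Atp1b3 were higher in HA IP and Atp1b1 was lower. Among the FXYD genes, Fxyd1 and Fxyd6 were higher and Fxyd7 was lower. For each of the 6 genes the HA IP and input libraries did not overlap, and all 4 animals showed the same direction. The share of all genes tested that separate in this way was not computed. With 83.3% of them called, the separation is not read as particular to these 6 genes.

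Atp1b2 had 1113, 1031, 1049.95 and 1068 FPKM in HA IP of animals 579, 580, 581 and 595, against 169, 166, 152 and 162 FPKM in input. Its lowest HA IP library was thus far above its highest input library, and the spread within either group was small. The means were 1066 ± 35.1 FPKM in HA IP, against 162 ± 7.07 FPKM in input (SD, n = 4 each). The log2 fold change was 3.54 (SE 0.09, limma adjusted p = 5.68e-10), an 11.7-fold rise, and lay between 3.51 and 3.59 in the 4 animals. Of the genes tested 360, or 2.31%, had a larger fold change. Without TMM scaling the log2 fold change was 2.72, and the levels rest on 106652 to 150099 fragments per HA IP library and 16616 to 25716 per input library.

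Atp1b1 ran the other way. It had 86.2, 82.8, 134 and 77.0 FPKM in HA IP of animals 579, 580, 581 and 595, against 614, 589, 651 and 680.4 FPKM in input. Animal 581 stood above the other HA IP libraries, yet stayed far below every input library. The means were 95.1 ± 26.5 FPKM in HA IP, against 634 ± 40.1 FPKM in input (SD, n = 4 each). Atp1b1 fell by 1.94 on the log2 scale (SE 0.16, limma adjusted p = 1.52e-06) to 26.1% of input after TMM scaling, with -2.35 in animal 595 and -1.48 in animal 581 at the ends of the range. Without TMM scaling the log2 fold change was -2.77. A larger fall than that of Atp1b1 was seen for 2154 genes, or 13.8% of those tested. Every one of the 12 neuron markers fell by more, between -4.43 and -2.35 on the log2 scale; the difference between Atp1b1 and these markers was not tested.

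Atp1b3, the beta-3 subunit gene, had 91.7, 91.7, 107 and 112 FPKM in HA IP, against 56.8, 53.4, 54.1 and 49.2 FPKM in input, in the same order of animals. The animal with the highest HA IP value, 595, had the lowest input value. The log2 fold change was 1.74 (SE 0.08, limma adjusted p = 1.68e-08), with 1.55 to 1.98 in single animals, a rise of 3.34-fold. It was 0.91 without TMM scaling, and 13.0% of genes tested had a larger fold change.

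Fxyd1 showed the largest difference of the 6 genes. It had 98.0, 111, 112 and 103 FPKM in HA IP of animals 579, 580, 581 and 595, against 8.98, 10.4, 8.01 and 7.62 FPKM in input. HA IP libraries therefore differed among themselves by little compared with their distance from input. The log2 fold change was 4.41 (SE 0.10, limma adjusted p = 3.48e-10), a 21.3-fold rise, and 4.26 to 4.58 in single animals. Of the genes tested 77, or 0.493%, had a larger fold change. The value lay within the range of the 12 astrocyte markers, 2.95 to 5.09. Without TMM scaling it was 3.59.

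Fxyd6 encodes a FXYD protein that occurs in brain and inner ear. Its levels were 90.4, 65.6, 63.3 and 78.6 FPKM in HA IP, against 57.6, 53.6, 46.6 and 54.9 FPKM in input, in the same order of animals. The lowest HA IP library was above the highest input library by a small margin, the narrowest of the 6 genes on the deposited scale. The log2 fold change was 1.30 (SE 0.12, limma adjusted p = 3.71e-06), a rise of 2.47-fold, with 1.16 to 1.51 in single animals. Without TMM, which moved the 6 genes by nearly the same amount, its log2 fold change was 0.48 (limma adjusted p = 0.00407), and the ratio of mean FPKM was 1.40. With TMM, 19.1% of genes tested had a larger fold change.

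Fxyd7 had 11.9, 12.9, 16.9 and 10.8 FPKM in HA IP of animals 579, 580, 581 and 595, against 99.8, 104, 78.8 and 80.9 FPKM in input. Animal 581 had the highest HA IP value and the lowest input value. Fxyd7 fell by 1.97 on the log2 scale (SE 0.14, limma adjusted p = 5.72e-07) to 25.6% of input, with -2.20 to -1.42 in single animals, the smallest fall being that of animal 581. Without TMM scaling the log2 fold change was -2.79. It lay, like Atp1b1, above all 12 neuron markers, again without a test of the difference, and 13.4% of genes tested fell further. It had the fewest fragments of the 6 genes, 246 to 511 per HA IP library and 1957 to 2917 per input library.

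**Figure D1:**
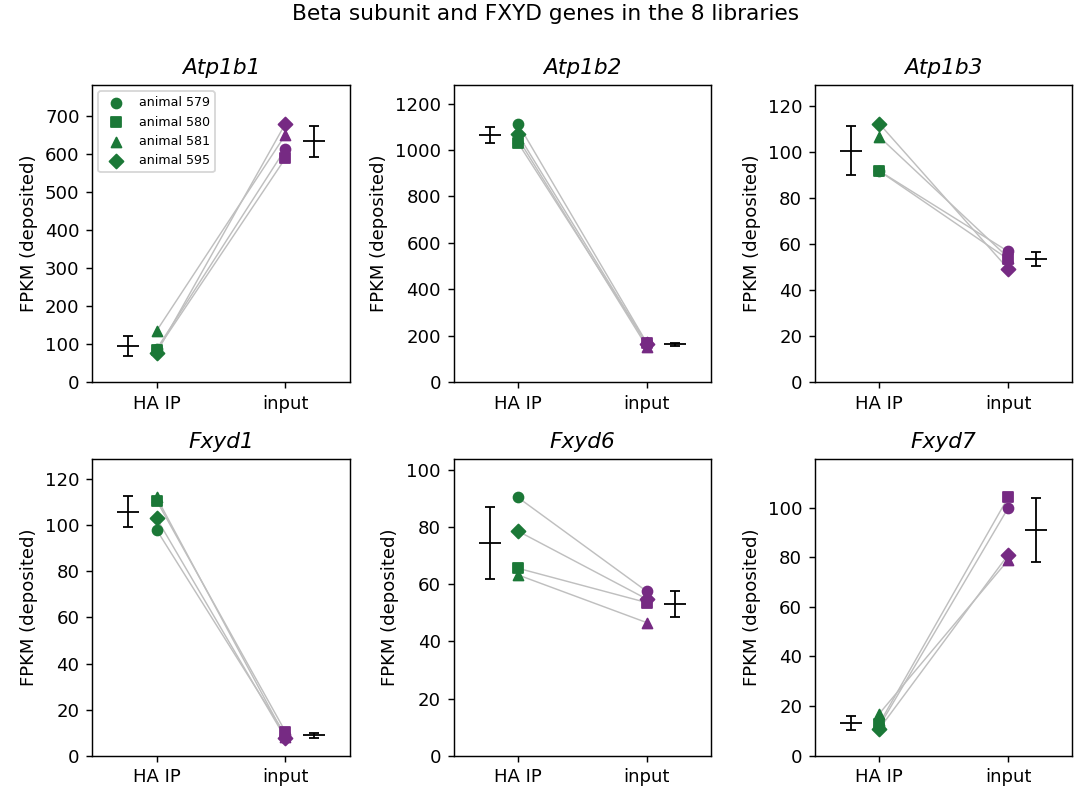
Deposited FPKM of the 6 genes (y axis, linear, from 0) in HA IP (left, green) and input (right, purple), with 1 symbol per animal, grey lines joining the libraries of an animal, and black marks for the mean ± SD of 4 libraries. Atp1b2, Atp1b3, Fxyd1 and Fxyd6 are higher in every HA IP library than in any input library, and Atp1b1 and Fxyd7 are lower in every HA IP library.

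**Figure D2:**
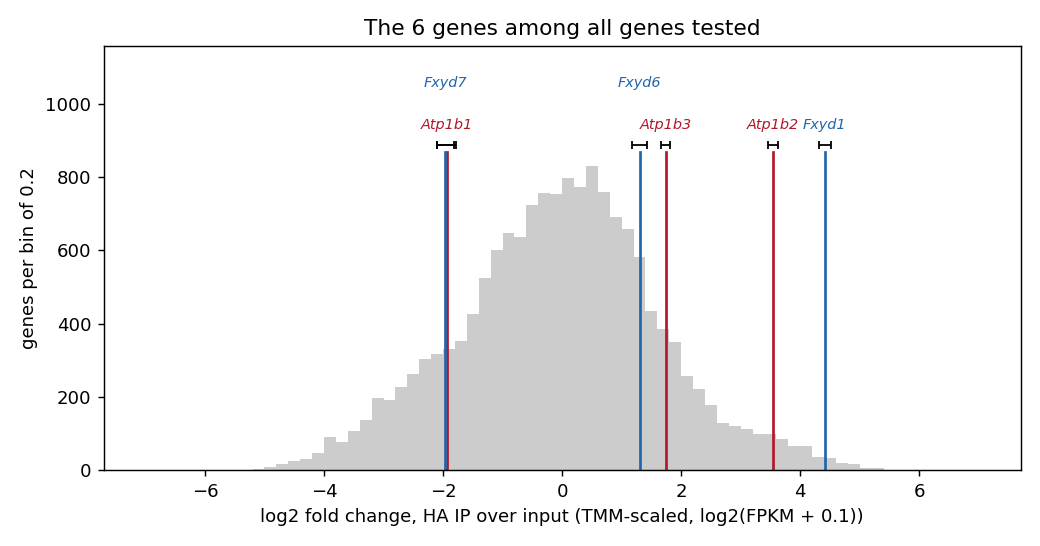
Distribution of log2 fold changes (x axis, HA IP over input) of the 15605 genes tested, as genes per bin of 0.2 (y axis), with lines for the beta subunit genes (red) and the FXYD genes (blue) and black bars for their SE. Fxyd1 at 4.41 and Atp1b2 at 3.54 lie in the upper tail, while Atp1b1 at -1.94 and Fxyd7 at -1.97 lie on the lower flank, inside the bulk of falling genes.

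Among the beta subunit genes the order of levels differed between the groups. FPKM corrects for length with the authors' gene lengths, recovered here as 2584 bases for Atp1b1, 2952 for Atp1b2 and 1824 for Atp1b3, so a comparison between genes rests on these. Of the summed FPKM of the 3 genes, Atp1b2 made up 84.5 ± 2.18% in HA IP and 19.1 ± 1.35% in input, and Atp1b1 made up 7.52 ± 1.96% in HA IP and 74.6 ± 1.78% in input (SD, n = 4 each). Atp1b3 kept a small share in both, 7.98 ± 0.794% in HA IP and 6.30 ± 0.555% in input. In HA IP the levels of Atp1b3 and Atp1b1 overlapped and could not be ordered. In input Atp1b1 was above Atp1b2, and Atp1b2 above Atp1b3, in all 4 libraries.

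The FXYD genes changed order as well. Their lengths were 2298 bases for Fxyd1, 1784 for Fxyd6 and 672 for Fxyd7. Fxyd1 made up 54.8 ± 4.54% of the summed FPKM of the 3 genes in HA IP and 5.73 ± 0.440% in input, while Fxyd7 made up 6.79 ± 1.43% in HA IP and 59.4 ± 2.27% in input (SD, n = 4 each). Fxyd6 had similar mean shares, 38.4 ± 5.64% in HA IP and 34.9 ± 2.61% in input, with overlapping libraries. Over all 6 genes, HA IP levels ran from Atp1b2, far above the rest, through Fxyd1, Atp1b3, Atp1b1 and Fxyd6, whose neighbours overlapped, to Fxyd7. Input levels ran from Atp1b1 through Atp1b2 and Fxyd7 to Atp1b3 and Fxyd6, which overlapped, and then to Fxyd1.

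**Figure D3:**
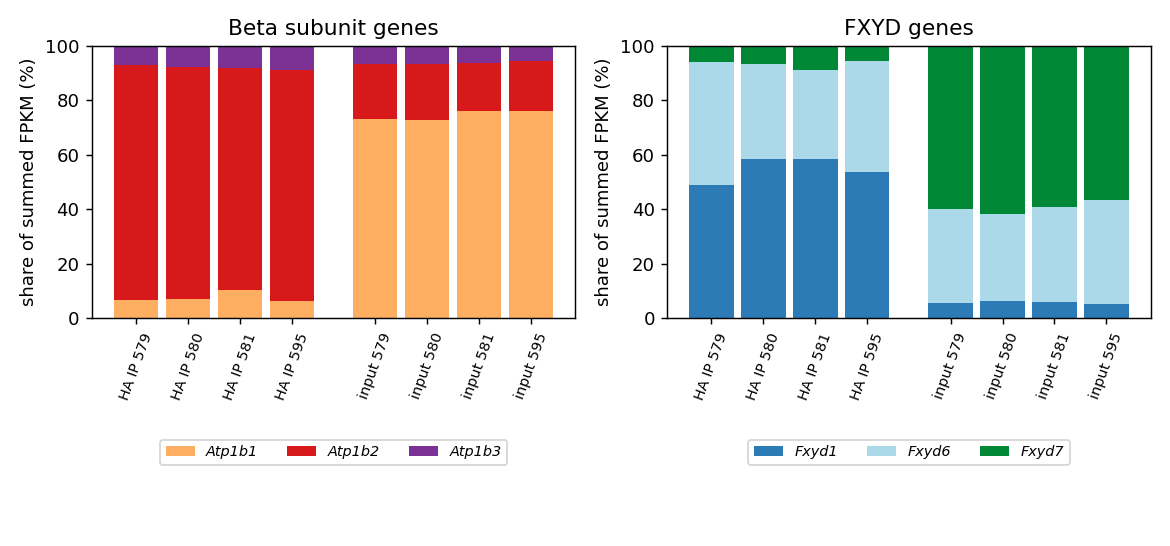
Share of the summed FPKM (y axis, percent) held by each beta subunit gene (left panel) and each FXYD gene (right panel) in each of the 8 libraries, HA IP left of input. Atp1b2 holds 81.3% to 86.2% of the beta sum in HA IP and 17.8% to 20.5% in input; Fxyd1 holds 48.9% to 58.5% of the FXYD sum in HA IP and 5.31% to 6.21% in input.

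Ratios of genes within a library do not depend on library size or TMM scaling, and 6 of them were tested by an exact two-sided permutation test over the 8 libraries, with Benjamini-Hochberg adjustment over the 6. Where a ratio sets a rising against a falling gene, full separation and the smallest p follow from the levels of the single genes given above. The p of such a ratio is no further support, and its size is given as a description. Atp1b2 over Atp1b1 was 12.9, 12.4, 7.80 and 13.9 in HA IP of animals 579, 580, 581 and 595, against 0.275, 0.281, 0.234 and 0.239 in input. Every HA IP library thus had more Atp1b2 than Atp1b1, and every input library the opposite. On the log2 scale the ratio averaged 3.52 ± 0.38 in HA IP and -1.96 ± 0.14 in input, a difference of 5.48, or 44.8-fold (exact permutation p = 0.0286, n = 4 each). Fxyd1 over Fxyd7 was 8.21, 8.54, 6.59 and 9.45 in HA IP, against 0.0910, 0.101, 0.103 and 0.0953 in input. This was the largest of the 6 differences, 6.38 on the log2 scale or 83.4-fold, with means of 3.02 ± 0.22 in HA IP and -3.36 ± 0.08 in input (exact permutation p = 0.0286, n = 4 each).

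The other ratios also separated the groups. Atp1b3 over Atp1b1 averaged 0.11 ± 0.36 in HA IP and -3.57 ± 0.16 in input on the log2 scale, a difference of 3.68. Atp1b2 over Atp1b3, the only ratio between a pair of rising beta genes, averaged 3.41 ± 0.16 in HA IP and 1.60 ± 0.10 in input, a difference of 1.81. Atp1b2 was therefore raised further than Atp1b3, by 3.49-fold. Fxyd1 over Fxyd6 averaged 0.52 ± 0.33 in HA IP and -2.59 ± 0.20 in input, a difference of 3.11 or 8.66-fold, and Fxyd7 over Fxyd6 averaged -2.50 ± 0.48 in HA IP and 0.77 ± 0.16 in input, a difference of -3.27. Each of the 6 ratios had an exact permutation p of 0.0286, which was also the adjusted p and the smallest p that 4 against 4 libraries can give. Only for Atp1b2 over Atp1b3 and Fxyd1 over Fxyd6, each a pair of rising genes, was this p not fixed by the separation of the single genes. When HA IP and input were exchanged only within an animal, the smallest possible exact p was 0.125, and each ratio reached it.

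Genes of opposite direction lay side by side on chromosome 7 (GRCm38.p6). Fxyd7 spans chr7:31042515-31051454 and Fxyd1 chr7:31051678-31055873, with 223 bases between them. On the other side of Fxyd7, after 183 bases, lies Fxyd5, the gene of dysadherin, at chr7:31032723-31042331. Beyond Fxyd1 lie Lgi4, which encodes a secreted glial protein, at chr7:31058909-31070935, and Fxyd3 at chr7:31070535-31076697. Along the chromosome the log2 fold changes were -1.52 for Fxyd5, -1.97 for Fxyd7, 4.41 for Fxyd1, 3.71 for Lgi4 (SE 0.10) and 2.96 for Fxyd3. The sign differed between the neighbours Fxyd7 and Fxyd1, each value being taken over a whole gene, and the bases between them were not measured. The value of Fxyd3, which passed the filter on low values only through HA IP, is a description. Lgi4, named after its values were seen, had 78.1 ± 9.47 FPKM in HA IP, against 10.4 ± 0.869 FPKM in input (SD, n = 4 each). It overlaps Fxyd3 by 401 bases, so reads there may belong to either gene. An annotated lncRNA gene, Gm38984, spans Fxyd7 and Fxyd1 and was not analysed here; the strand setting of the counting is not given in the sources used here.

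**Figure D4:**
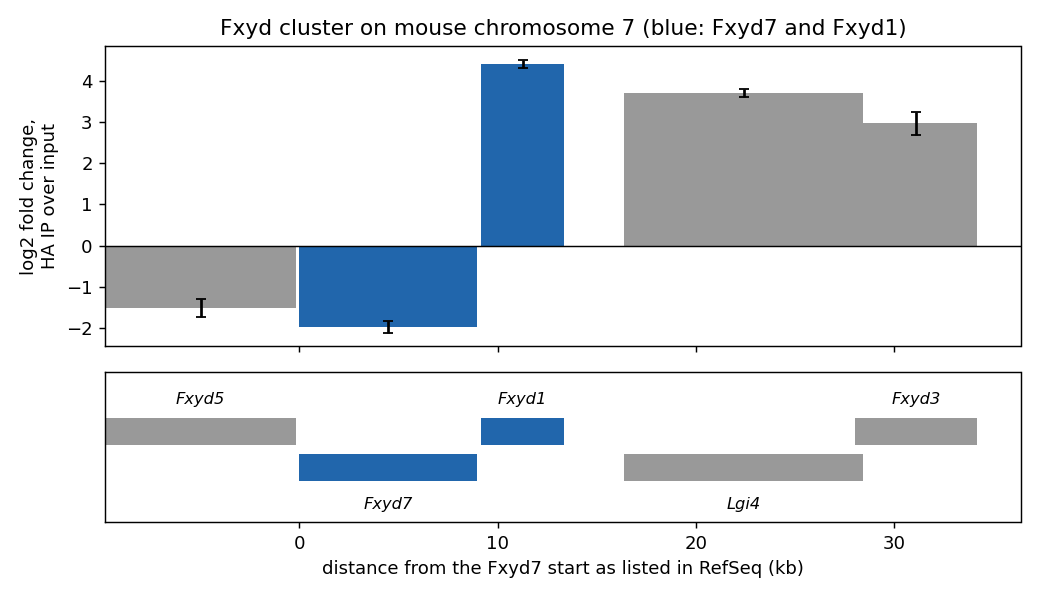
Log2 fold change, HA IP over input (upper panel, y axis; bars span each gene, black bars are SE), and gene spans (lower panel) along the Fxyd cluster of chromosome 7, as distance in kb from the Fxyd7 start (x axis). Fxyd5 and Fxyd7 lie below 0 at -1.52 and -1.97, and Fxyd1, Lgi4 and Fxyd3 lie above 0 at 4.41, 3.71 and 2.96.

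The other genes lay apart from this cluster. Fxyd6 is at chr9:45369470-45396159, with Fxyd2, the gene of the renal gamma subunit, starting 3549 bases after its end. Atp1b3 is at chr9:96332655-96364431, Atp1b2 at chr11:69599728-69605978 and Atp1b1 at chr1:164437099-164458355. Nme7, a nucleoside diphosphate kinase gene, overlaps Atp1b1 by 202 bases. It ran against Atp1b1, with 7.48 ± 1.26 FPKM in HA IP, against 2.49 ± 0.260 FPKM in input (SD, n = 4 each; log2 fold change 2.34, SE 0.15), levels far below those of Atp1b1.

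Of 8 other genes of the FXYD, beta subunit and proton pump families, 5 were tested, of which 1 was higher, 3 were lower and 1 was not called in HA IP. Among all genes tested, 41.8% were higher and 41.4% lower. Fxyd3 passed the filter on low values only through its HA IP libraries, and Fxyd4 only through its input libraries, so the filter itself favoured a difference in both genes and their p-values are not read as support. Fxyd3 had 1.65, 1.40, 1.94 and 0.916 FPKM in HA IP of animals 579, 580, 581 and 595, against 0.163, 0.438, 0.157 and 0.145 FPKM in input (fitted log2 fold change 2.96, SE 0.29). The groups did not overlap, but only 16 to 45 fragments per HA IP library and 3 to 8 per input library carry the value, and a filter at 1 FPKM removed the gene. Fxyd5 averaged 0.425 ± 0.147 FPKM in HA IP, against 2.34 ± 0.369 FPKM in input (SD, n = 4 each), a log2 fold change of -1.52 (SE 0.21, limma adjusted p = 7.25e-05). Fxyd2 averaged 0.286 ± 0.111 FPKM in HA IP, against 1.41 ± 0.206 FPKM in input, with a log2 fold change of -1.30 (SE 0.21, limma adjusted p = 2.23e-04). Fxyd4, known from kidney and colon, had a fitted log2 fold change of -1.35 (SE 0.28) on 1 to 8 fragments per HA IP library and 14 to 26 per input library. Atp4a, the catalytic subunit of the gastric proton pump, had a log2 fold change of -0.15 (SE 0.17, limma adjusted p = 0.422), and without TMM scaling -0.38 (limma adjusted p = 0.0406). It had 0 to 11 fragments per HA IP library and 14 to 21 per input library. Because Atp4a passed the filter through its input libraries, its p-values are not read as support either. Atp1b4, Atp4b and Atp12a had too few fragments to be tested.

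Of 12 proteins known to bind the pump or its beta subunits, the genes of 6 were higher and of 5 lower in HA IP, Nkain3 being among the 5. These counts are near the shares of all genes tested, 41.8% higher and 41.4% lower, and are not read as a result about the list. The median change of the list was 0.54 on the log2 scale. The highest were Mlc1, a membrane protein of astrocyte endfeet (4.96, SE 0.10), Hepacam, the adhesion protein GlialCAM that escorts it (4.04, SE 0.06), and Nkain4 (3.98, SE 0.18). Mlc1 reached 1006 ± 74.0 FPKM in HA IP, against 57.4 ± 4.85 FPKM in input, a level in HA IP close to that of Atp1b2. The lowest fitted values were those of Nkain2 (-3.17, SE 0.14), Nkain3 (-2.67, SE 0.16) and Ank3, the gene of ankyrin-G of the axon initial segment (-2.02, SE 0.25). Nkain3 passed the filter only through input, with 1 to 3 fragments per HA IP library and 160 to 414 per input library, so the pseudocount sets its value and its place after Nkain2. The Nkain genes, which encode pump-interacting membrane proteins, thus held members at both ends of the list. Cav1, of the caveolar coat, was not called (-0.04, SE 0.41, limma adjusted p = 0.929). Without TMM scaling the median of the list was -0.26.

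Of 17 genes of sodium-coupled transport and potassium clearance, 11 were higher and 6 lower in HA IP, and the median change was 2.53 on the log2 scale. The shares over all genes tested were 41.8% higher and 41.4% lower. Slc1a2, Slc1a3 and Slc6a11 of this list are also among the astrocyte markers above. The highest were Kcnj10, the inward rectifier potassium channel Kir4.1 (4.11, SE 0.10), the glutamine transporter Slc38a3 (3.98, SE 0.10) and the GABA transporter Slc6a11 (3.98, SE 0.07). Kcnj10 averaged 535 ± 53.0 FPKM in HA IP, against 55.0 ± 4.70 FPKM in input (SD, n = 4 each). The lowest were Slc12a5, the neuronal potassium chloride cotransporter KCC2 (-3.59, SE 0.11), and the sodium calcium exchangers Slc8a1 (-3.19, SE 0.14) and Slc8a2 (-3.13, SE 0.09). Fxyd1 at 4.41 lay above every gene of this list and Atp1b2 at 3.54 below 5 of its 17 genes, and the falls of Atp1b1 and Fxyd7 were smaller than those of Slc12a5, Slc8a1 and Slc8a2; these differences were not tested.

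**Figure D5:**
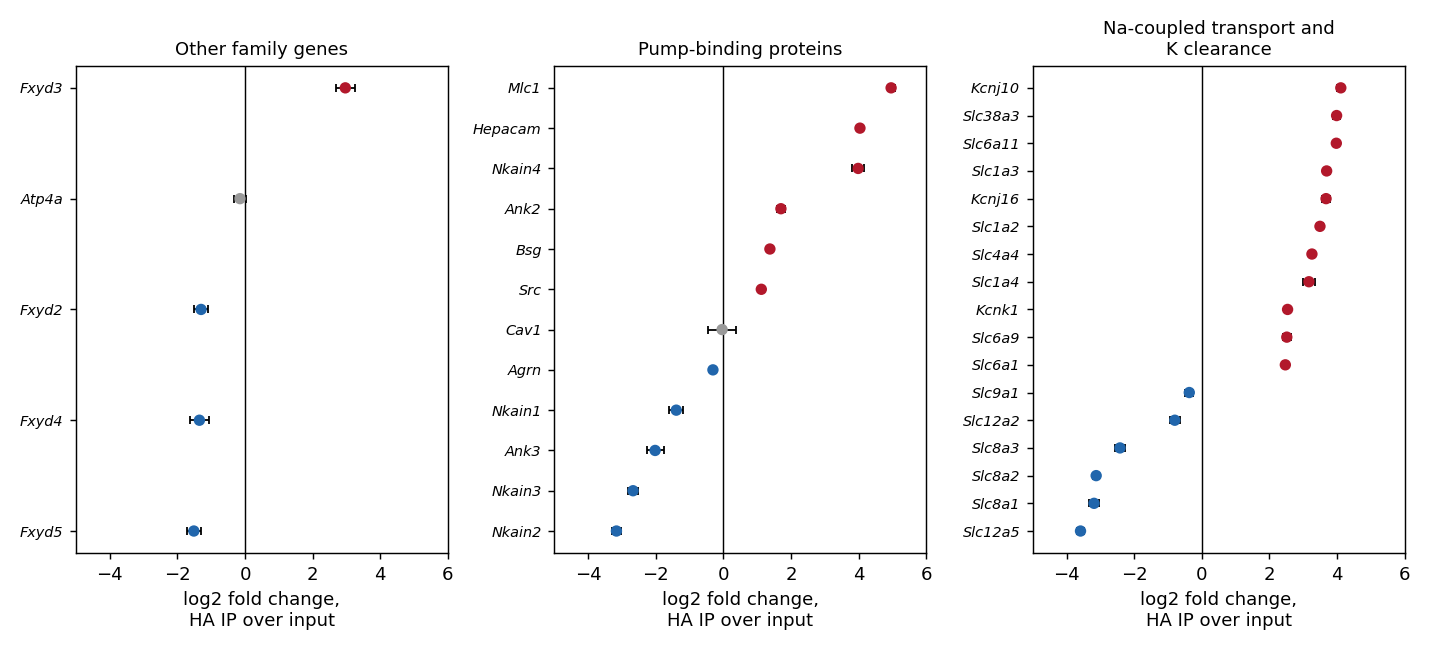
Log2 fold change, HA IP over input (x axis, with SE), of the tested genes of the 3 lists, in red where higher, blue where lower and grey where not called. Fxyd3 at 2.96, Mlc1 at 4.96 and Kcnj10 at 4.11 have the highest fitted values of their lists, and Fxyd5 at -1.52, Nkain2 at -3.17 and Slc12a5 at -3.59 the lowest, where the pseudocount of 0.1 FPKM shrinks the values of low genes such as Fxyd4 and Nkain3.

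The genes whose levels ran most like each of the 6 were found by the Euclidean distance between gene-centred log2 levels over the 8 libraries, among 7799 genes of at least median level, as a description without a test. Nearest to Atp1b2 were Suox (distance 0.137), Ttyh1 (0.152) and Cxcl14 (0.161), with log2 fold changes of 3.59, 3.48 and 3.58. Nearest to Fxyd1 were Mdk (0.172), Acads (0.234) and S100b (0.274), and S100b is a common astrocyte marker. Nearest to Atp1b3 were Pgm1 (0.234), Ndufa12 (0.248) and Gpr108 (0.264), and nearest to Fxyd6 were Lypd6 (0.226), Tox (0.238) and Spag1 (0.242). The falling genes had more distant neighbours: Ets2 (0.291), Ywhag (0.320) and Nceh1 (0.410) for Atp1b1, and Them6 (0.336), Arhgdig (0.388) and Rassf3 (0.433) for Fxyd7. No gene appeared beside more than 1 of the 6.

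Markers of other cell types were also compared between HA IP and input. Summed over each list, neuron markers were at 97.1 to 122 FPKM in HA IP, against 2283 to 2524 FPKM in input, and astrocyte markers at 12208 to 12887 FPKM in HA IP, against 902 to 967 FPKM in input. All 10 microglia, 8 endothelial and 6 oligodendrocyte precursor markers were lower in HA IP, as were 9 of 10 oligodendrocyte markers. Of the mural cell markers 3 of 8 were lower and 5 not called. Of the ependymal and choroid plexus markers 6 of 8 were tested, with 3 higher, 2 lower and 1 not called. The sum over all 8 was 31.7 to 43.5 FPKM in HA IP, against 6.18 to 10.1 FPKM in input. The median gene of this list did not follow the sum. It was at 0.098, 0.146, 0.329 and 0.514 FPKM in HA IP of animals 579, 580, 581 and 595. In input it was at 0.410, 0.340, 0.425 and 0.464 FPKM, so it was higher in HA IP only in animal 595. No marker was at 0 in every library of a group. In HA IP the neuron sum was 110, 97.1, 118 and 122 FPKM in animals 579, 580, 581 and 595. Atp1b1 was at 86.2, 82.8, 134 and 77.0 FPKM in these libraries, highest in animal 581 and lowest in animal 595. The part of these cell types in the levels of the 6 genes was not tested.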

How the data were processed

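Libraries were stranded and paired-end, made after mRNA enrichment, per the labels' protocols. The tools bcl2fastq 2.17, STAR and HTSeq and the build mm10 come from the submitters' processing notes. The annotation, the strand setting and other versions were not stated there or in the labels. A deposited file has 1 value per gene in an unnamed unit. It was taken for FPKM made by the authors, because all 142235 values above 0 lay within 0.001 of a whole number of fragments once a whole length per gene and a total per library were fitted. This recovered whole fragments for the 20045 genes listed above 0.

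The test kept 15605 genes that reached 0.246 CPM of recovered fragments (10 fragments at median depth) in 4 or more libraries and 15 fragments in all. FPKM were divided by TMM factors (0.3 of M-values and 0.05 of A-values trimmed, own code), and log2(FPKM + 0.1) was tested with limma 3.58.1 in R 4.3.3, with an intensity trend and no block, two-sided. The pseudocount understates changes of low genes. The fit was tested on simulated data. The deposited values were tested as FPKM. No count test was run on the recovered fragments, which served the filter and the fragment ranges. Ratios of genes within a library were compared by exact permutation.

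Libraries of the same animal deviated together (r 0.22 to 0.40 for 4 pairs, -0.27 to 0.11 for the other 12), and the labels give 1 number per animal, so numbers pair the libraries; the block is an alternative. The genes, lists, markers and rules were chosen with earlier results of these data known. The named genes were all 6, the tested family genes, the 3 highest and 3 lowest of the other pathway lists, 2 markers of a list (given here for astrocytes and neurons), and the 3 nearest genes to each. The catalytic subunit genes of the pump, which the family list also held, are not reported here. Intervals of counting were not needed, since every comparison is over libraries. Sequences are from RefSeq (GRCm38.p6), searched on both strands.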

Additional observations from a re-analysis of the deposited data

Results flagged for a closer look

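Atp1b1 in HA IP of animal 581 had 134 FPKM, apart from 77.0 to 86.2 FPKM in the other 3 HA IP libraries. The gap to the nearest library was 0.840 of the range of the group, above the critical value of Dixon's test for 4 values at the 95% level. It was 1 of 12 groups of 4 libraries tested, and chance alone passes about 1 group in 20. The same library had the highest Fxyd7 of the 4 (16.9 FPKM), which did not pass the test. Without it the log2 fold change of Atp1b1 was -2.11, against -1.94 with it.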

How the results depend on the processing

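The 6 genes kept their direction and stayed past the threshold under 8 alternatives (no TMM, median-of-ratios factors, pseudocounts of 1 and 0.01, either change of filter, the replicate block, no trend) and in 12 fits leaving out a library or an animal. These 12 fits moved the log2 fold changes to between -2.11 and -1.80 for Atp1b1, 3.52 and 3.56 for Atp1b2, 1.66 and 1.80 for Atp1b3, 4.35 and 4.50 for Fxyd1, 1.20 and 1.39 for Fxyd6, and -2.15 and -1.87 for Fxyd7. As 83.3% of the 15605 genes tested were called in the main fit, staying past the threshold says little about a gene. How many other genes did so in every fit was not counted. TMM scaling mattered most: without it 3643 genes were higher and 9613 lower, so that 27.5% of called genes were higher, against 50.3% with it. With a filter at 1 FPKM, limma called 0 of the other family genes higher: Fxyd3 was no longer tested, and Fxyd2 and Fxyd5, the genes left, were called lower, so none was higher at an unadjusted p either. With the replicate block limma called 6691 genes higher and 6627 lower, and it changed no call of the 6 genes. For the ratios, exchanging labels within an animal as a block left the differences at 5.48, 3.68, 1.81, 3.11, 6.38 and -3.27, in the order Atp1b2/Atp1b1, Atp1b3/Atp1b1, Atp1b2/Atp1b3, Fxyd1/Fxyd6, Fxyd1/Fxyd7 and Fxyd7/Fxyd6, each at the smallest possible exact p of 0.125. Without 1 animal they ranged, in that order, from 5.36 to 5.63, 3.46 to 3.82, 1.73 to 1.90, 3.04 to 3.22, 6.30 to 6.51 and -3.47 to -3.12, at exact p = 0.1, the smallest that 3 against 3 allow. Among markers, the 1 oligodendrocyte gene called higher, Aspa (log2 fold change 0.44), was called lower without TMM (-0.37, limma adjusted p = 0.0454) and was not called higher without animal 580, animal 595 or the input library of 595. Mural markers called lower numbered 5 without TMM and 1 with the 1 FPKM filter, and ependymal ones 0 with that filter. Depth limits Fxyd3, Fxyd4 and Atp4a, with at most 45 fragments in a library.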
